A study of Mus musculus with 3 samples.

Results

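Dividing alveolar macrophages were the cells of 3 mouse lung tumour libraries that carried both alveolar macrophage transcripts and transcripts of cell division. Barcodes with at least 500 UMIs (unique molecular identifiers, the tags that mark single captured transcripts), at least 200 genes and at most 20% mitochondrial UMIs were taken as cells. Members were selected on measured values: at least 3 UMIs of Ear1, Ear2, Plet1, Fabp1, Car4 and Krt79 together, at least 3 UMIs of Mki67, Top2a and Birc5 together, and 0 UMIs of Cd3e, Cd3d, Cd79a, Ms4a1 and Epcam. Of 29513 cells, 202 met the rule: 49 of 9697 in the PD-L1 library, 114 of 10457 in AI-Exo and 39 of 9359 in PBS. The levels of these genes in the members are therefore given as a description.

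The libraries were made from tissue labelled non-small cell lung cancer with 10x Genomics 3′ v3.1 chemistry. There was 1 library each for the groups PD-L1, AI-Exo and PBS, and the study set immune cells of treated tumours against each other. The labels do not spell out PD-L1 or AI-Exo, and they give no dose, time, strain, age, tumour line, pooling of animals or cell sort, so nothing further can be said of what the groups share. Total counts were 65997942, 76512500 and 68386729 UMIs in PD-L1, AI-Exo and PBS. The cells of PD-L1 and PBS shared 23 barcodes, those of AI-Exo and PBS 26 and those of PD-L1 and AI-Exo 33, and 0 members had a barcode found among the cells of another library. Each group is a single library, so differences between groups could not be checked on replicates and carry no test. Bracketed 95% intervals reflect counting error alone, and a gene called higher or lower is one whose level differs by size between 2 libraries.

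Alveolar macrophages live in the air spaces of the lung, clear surfactant lipid and inhaled particles, and keep their numbers by dividing in place rather than by constant supply from blood monocytes. Their identity depends on the growth factor GM-CSF and the lipid-sensing factor PPARγ, and they carry Siglec-F, the scavenger receptor MARCO and the chitinase-like protein Chil3. A dividing cell first copies its DNA in S phase, with replication genes driven by E2F factors, and then switches on mitotic genes in G2, many of which are controlled by NF-Y at CCAAT boxes and by the DREAM and MuvB complexes at CHR elements.

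Promoters of genes that define these cells are shown because the members of each cell cycle list were higher together in dividing cells. Each line gives the 130 bases before the annotated start in RefSeq GRCm38.p6, 5′ to 3′ in the direction of the gene. Capitals mark CCAAT boxes (CCAAT on either strand) and CHR-like hexamers (TTTGAA or TTCGAA on either strand) in Top2a, Cdk1 and Ube2c, E2F-like octamers (TTTCCCGC, TTTGGCGC, TTTCGCGC or TTTGCCGC on either strand, which may overlap) in Mcm6, and CCAAT boxes in Ear1 and Ear2.
Top2a (chr11:99024190-99024319, - strand): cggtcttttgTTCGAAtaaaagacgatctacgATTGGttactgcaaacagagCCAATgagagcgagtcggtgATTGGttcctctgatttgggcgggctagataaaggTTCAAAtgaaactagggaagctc
Cdk1 (chr10:69352913-69353042, - strand): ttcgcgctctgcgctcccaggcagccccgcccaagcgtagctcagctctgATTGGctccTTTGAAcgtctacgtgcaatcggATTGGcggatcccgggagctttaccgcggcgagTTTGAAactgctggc
Ube2c (chr2:164769799-164769928, + strand): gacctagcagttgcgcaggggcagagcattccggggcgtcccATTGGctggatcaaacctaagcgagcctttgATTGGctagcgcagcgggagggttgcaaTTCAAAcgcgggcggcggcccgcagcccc
Mcm6 (chr1:128359706-128359835, - strand): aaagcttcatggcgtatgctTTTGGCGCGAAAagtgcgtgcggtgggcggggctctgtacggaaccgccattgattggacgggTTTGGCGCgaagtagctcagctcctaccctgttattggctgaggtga
Ear1 (chr14:43819640-43819769, - strand): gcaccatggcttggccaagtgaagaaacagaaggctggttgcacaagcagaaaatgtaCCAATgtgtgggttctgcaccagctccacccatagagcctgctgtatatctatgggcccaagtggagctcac
Ear2 (chr14:44102524-44102653, + strand): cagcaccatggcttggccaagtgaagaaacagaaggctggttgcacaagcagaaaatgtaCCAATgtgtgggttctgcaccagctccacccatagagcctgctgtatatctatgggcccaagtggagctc

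Top2a, DNA topoisomerase II, held 3 CCAAT boxes and 2 CHR-like hexamers in that window. Of the G2 and mitosis list, 47 of 53 genes had a promoter in the reference table, and 61.7% of these held both a CCAAT box and a CHR-like hexamer within 250 bases before to 50 after the start. Among the first listed promoters of all 27025 genes, the share was 7.7%. Of the S phase list, 34 of 46 genes matched, and 38.2% held an E2F-like octamer, against 2.32% of all promoters. A CCAAT box was common in both lists, in 76.6% of G2 and mitosis, 70.6% of S phase and 37.9% of all promoters. CHR-like hexamers were in 74.5% of G2 and mitosis, 17.6% of S phase and 19.4% of all promoters. The promoters of Ear1 and Ear2, 2 eosinophil-associated ribonuclease genes of 1 family on the same chromosome, were 97.0% identical over 303 aligned positions. Their transcripts were not compared here, and how reads were split between these paralogs was not tested, so their separate values are uncertain. A match describes the letters in these windows and is not a binding site shown here.

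The label fitted most of the cells and not all of them. All 6 macrophage genes were detected in 96 members and 5 of them in another 35, whereas 28 members had UMIs of 1 of the genes and 10 of 2. In 19 members (4, 10 and 5 in PD-L1, AI-Exo and PBS) Hmga2, Rhox5 and Krt8, markers of tumour-like cells in these libraries, summed to between 52 and 406 UMIs, and 17 of them had UMIs of only 1 or 2 of the 6 macrophage genes. Those cells were deep, with a median of 75920 UMIs, and held 28.1%, 30.0% and 36% of all member UMIs in PD-L1, AI-Exo and PBS. Of 21 more members with at most 2 macrophage genes, 4 had at least 100 UMIs of the neutrophil genes S100a8 and S100a9, 6 had at least 3 of the dendritic cell genes Flt3, Xcr1 and Clec9a, and 2 had at least 100 of C1qa, C1qb and C1qc.

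**Figure D1:**
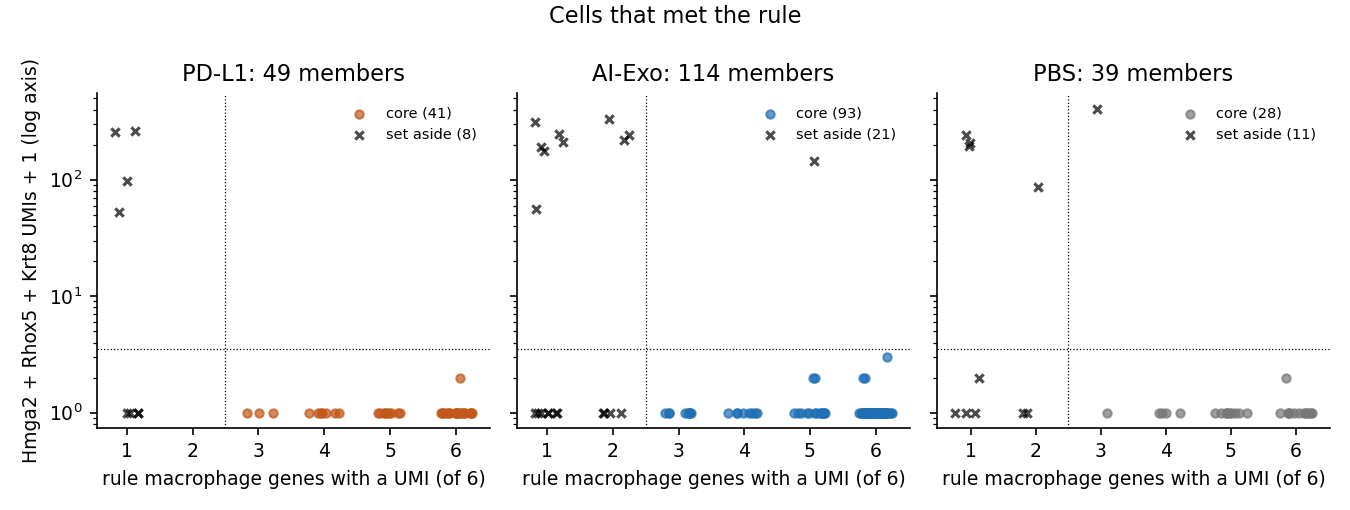
Members by library, 1 point per cell. The x axis counts how many of the 6 rule macrophage genes had a UMI (points spread sideways for clarity) and the log y axis gives the summed UMIs of Hmga2, Rhox5 and Krt8 plus 1. Dotted lines bound the core cells, circles (41 in PD-L1, 93 in AI-Exo and 28 in PBS), and crosses are the 40 members set aside, 19 of them at 52 or more tumour-like UMIs.

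After these values were seen, a core of 162 members was defined as those with at least 3 of the 6 genes and at most 2 tumour-like UMIs: 41 in PD-L1, 93 in AI-Exo and 28 in PBS. The 40 cells set aside held 37.2%, 38.7% and 53% of the member UMIs of the PD-L1, AI-Exo and PBS libraries. A doublet caller gave a score of 0.15 or more to 8, 11 and 2 members of PD-L1, AI-Exo and PBS, and 8, 10 and 2 of these are in the core. Of all cells, 551 of 9697 in PD-L1, 659 of 10457 in AI-Exo and 451 of 9359 in PBS had such a score. The share was thus higher in the core than in the whole library, most so in PD-L1. In the core, 0 UMIs of the 5 mast cell or basophil markers were found in any library, and fibroblast, red blood cell and eosinophil markers summed to at most 3.09 CPM (counts per 1000000 UMIs of the cells summed). Other lists stood higher. Nonclassical monocyte markers summed to 578 CPM in PD-L1, 493 CPM in AI-Exo and 633 CPM in PBS. Interstitial or tumour macrophage markers summed to 129, 346 and 226 CPM and epithelial markers to 58, 522 and 45.7 CPM, in the same order. Neutrophil, NK cell, dendritic cell and classical monocyte sums are given below.

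Marco, which the rule did not use, showed that the core cells carried alveolar macrophage RNA. After each cell was thinned to 5000 UMIs, Marco had a UMI in 57.5% of PD-L1, 63.3% of AI-Exo and 52% of PBS core cells. In T cells (at least 3 UMIs of Cd3e and Cd3d and 0 of the macrophage genes), which should lack it, the shares were 0.254%, 0.304% and 0.251%. Median depths before thinning were 13911, 17387 and 15594 UMIs in those core cells and 9397, 7917 and 8570 in the T cells. The 12 alveolar macrophage markers summed to 10157 CPM in PD-L1, 11996 CPM in AI-Exo and 12393 CPM in PBS in core cells, and to 13766 CPM in PD-L1, 13185 CPM in AI-Exo and 14150 CPM in PBS in resting cells held to the same conditions (division genes at 0).

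The thresholds were checked by the cells next to them, pooled over the libraries. Just inside the division threshold, 18 cells with a sum of 3 had a median of 13738 UMIs and a median macrophage sum of 46.5, and just outside it 35 cells with a sum of 2 had 12362 and 47. At the macrophage threshold, 15 cells with a sum of 3 had a median of 20506 UMIs and a median division sum of 13, and 23 cells with a sum of 2 had a median of 23212 UMIs and a median division sum of 14. In PBS, with 4 to 6 cells on each side, the depths were further apart, at 20842 UMIs inside and 8960 outside the division threshold and 56666 inside and 11245.5 outside the macrophage threshold. Of 91, 220 and 81 cells that met both sums in PD-L1, AI-Exo and PBS, 42, 106 and 42 were removed for a single UMI or more of a T cell, B cell or epithelial gene.

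The first comparison asked what share of the alveolar macrophages was dividing in each library. AI-Exo had the highest share and PD-L1 lay between it and PBS. Members made up 10.5% [7.9 to 13.7] of the cells past the macrophage gate in PD-L1 (49 of 465 cells), 19% [15.9 to 22.4] in AI-Exo (114 of 600) and 6.69% [4.8 to 9.03] in PBS (39 of 583). The ratio of shares was 2.84 [2.01 to 4.01] for AI-Exo over PBS and 1.58 [1.05 to 2.36] for PD-L1 over PBS. The AI-Exo interval did not overlap the interval of PBS, while those of PD-L1 and PBS overlapped. The ratios depended on the gate: without Ear2 and Car4 among its genes the shares were 12.6% in PD-L1, 20.7% in AI-Exo and 11.2% in PBS. The ratio over PBS was then 1.85 [1.31 to 2.61] for AI-Exo and 1.12 [0.748 to 1.68] for PD-L1.

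Past the gate, 351 of 465 cells in PD-L1, 469 of 600 in AI-Exo and 315 of 583 in PBS met the core conditions. Resting cells past the gate had a median macrophage sum of 39 in PD-L1, 41 in AI-Exo and 12 in PBS. Their classical monocyte markers summed to 451 CPM in PD-L1, 445 CPM in AI-Exo and 1073 CPM in PBS. What part this had in the PBS share was not tested. In the core the shares were 11.7% [8.51 to 15.5] in PD-L1, 19.8% [16.3 to 23.7] in AI-Exo and 8.89% [5.99 to 12.6] in PBS. The ratio over PBS was then 2.23 [1.5 to 3.32] for AI-Exo and 1.31 [0.833 to 2.07] for PD-L1, an interval that holds 1. Resting cells of PBS were shallower than those of the other libraries, with a median of 10233 UMIs in PD-L1, 10934 in AI-Exo and 8927 in PBS, so the rule was repeated at equal depth. With every cell thinned to 5000 UMIs, which left out 1, 3 and 3 members and 91, 80 and 112 resting cells of PD-L1, AI-Exo and PBS, the shares were 8.77%, 16.3% and 5.82%, and in the core 9.37%, 16.7% and 7.44%. Of all cells, members were 0.505% [0.374 to 0.668] in PD-L1, 1.09% [0.90 to 1.31] in AI-Exo and 0.417% [0.296 to 0.569] in PBS.

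**Figure D2:**
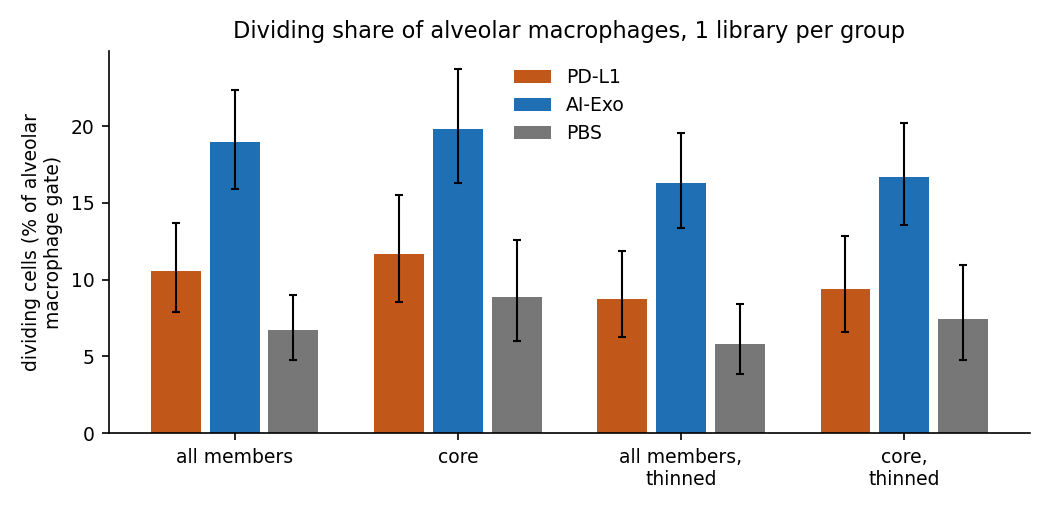
Dividing cells as a percent of the cells past the alveolar macrophage gate (y axis), in 1 library per group, for all members, the core, and both after thinning to 5000 UMIs per cell. Bars are shares and whiskers exact 95% binomial intervals of counting error. AI-Exo, at 19.8% in the core, stands above PD-L1 (at 11.7%) and PBS (at 8.89%) in each of the 4 settings.

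Most core cells had more G2 and mitosis than S phase transcripts. Per cell thinned to 5000 UMIs, and with the 3 rule genes left out, G2 and mitosis UMIs outnumbered S phase UMIs in 28 of 40 PD-L1 cells (70% [53.5 to 83.4]), 63 of 90 AI-Exo cells (70% [59.4 to 79.2]) and 19 of 25 PBS cells (76% [54.9 to 90.6]). S phase UMIs were the higher in 12, 23 and 5 cells of PD-L1, AI-Exo and PBS. The intervals of the 3 libraries overlapped. Other dividing cells, defined below and held to the same exclusions, had G2 and mitosis UMIs the higher in 78.8%, 74.2% and 70.4% of PD-L1, AI-Exo and PBS cells. Resting cells did in 58%, 56.8% and 56%, from the fewer UMIs of these lists in resting cells (medians of 4, 5 and 4 G2 and mitosis UMIs). The rule itself asks for G2 and mitosis transcripts, so it favours cells late in the cycle, and cells earlier in S phase with fewer than 3 such UMIs are not among the members.

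The median cell had 28, 33.5 and 33 G2 and mitosis UMIs and 9, 14.5 and 12 S phase UMIs of 5000 in PD-L1, AI-Exo and PBS. Pooled over the libraries, the 110 core cells with more G2 and mitosis UMIs and the 40 with more S phase UMIs were also set against each other outside the cell cycle. The median log2 ratio of G2 and mitosis cells over S phase cells was -0.17 for the identity list, -0.02 for lysosome genes and -0.01 for nuclear-encoded respiratory chain genes. It was 0.43 for MHC class II, 0.27 for checkpoint and costimulatory ligands, 0.23 for MHC class I and -0.25 for glycolysis. The libraries parted for MHC class II, at 1.65 in PD-L1, -0.46 in AI-Exo and 2.40 in PBS, where 5 S phase cells stand behind the PBS value, and for glycolysis, at -0.69 in PD-L1, -0.02 in AI-Exo and -0.24 in PBS. The 12 measured replication-dependent histone genes, whose mRNAs are made in S phase and mostly lack a poly(A) tail, had a median of 0.87, that is higher in the G2 and mitosis cells. The libraries were made from polyadenylated RNA, so these genes are measured only in part.

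**Figure D3:**
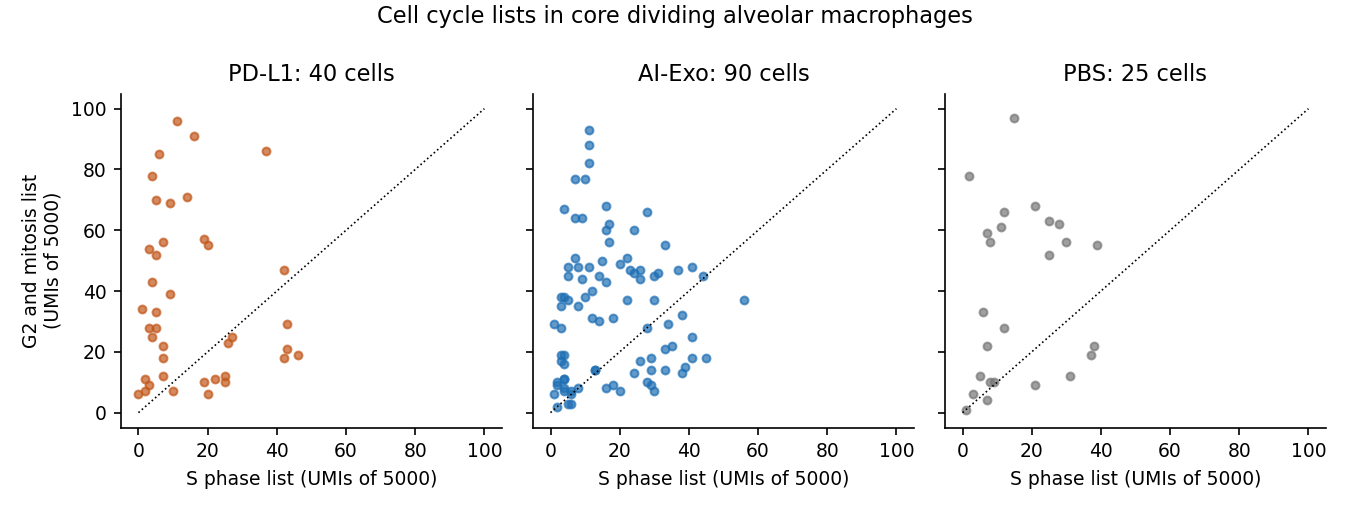
Core dividing alveolar macrophages, 1 point per cell thinned to 5000 UMIs, with UMIs of the S phase list on the x axis and of the G2 and mitosis list (rule genes left out) on the y axis, by library. The dotted line marks equal numbers. Points above it number 28 in PD-L1, 63 in AI-Exo and 19 in PBS.

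Set against resting alveolar macrophages of the same library, core dividing cells carried the division program on top of the identity genes, which stood somewhat lower. This contrast is the rule's own and is a description. Of 5451 genes with a mean over dividing and resting cells of at least 20 CPM in every library, 275 were at least 1.5-fold higher in all 3 libraries, 5.04% of those measured, and 15 lower, 0.275%. The ratios are log2 of CPM plus 10, which pulls low genes toward 0, and over all genes measured their median was 0.04. Of 42 measured G2 and mitosis genes 41 were higher, and the list median was 2.72 in PD-L1, 2.77 in AI-Exo and 2.88 in PBS. Of 27 S phase genes 25 were higher, with medians of 1.72 in PD-L1, 1.46 in AI-Exo and 1.48 in PBS.

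Of the genes that chose the cells, Top2a was at 384 CPM in PD-L1, 402 CPM in AI-Exo and 387 CPM in PBS in the core, Mki67, a chromosome-coating proliferation marker, at 449.8 CPM in PD-L1, 365 CPM in AI-Exo and 327 CPM in PBS, and Birc5, the survivin gene of the chromosomal passenger complex, at 306 CPM in PD-L1, 337 CPM in AI-Exo and 403 CPM in PBS. These are 0 in resting cells by definition. Pclaf, a PCNA-binding replication factor, was at 306 CPM in PD-L1, 467 CPM in AI-Exo and 420.1 CPM in PBS in core dividing cells, against 4.05 CPM in PD-L1, 3.14 CPM in AI-Exo and 2.79 CPM in PBS in resting cells. Ube2c, the ubiquitin-conjugating enzyme of the anaphase-promoting complex, was at 386 CPM in PD-L1, 315 CPM in AI-Exo and 466 CPM in PBS in dividing cells, against 3.71 CPM in PD-L1, 5.42 CPM in AI-Exo and 4.79 CPM in PBS in resting cells. Cdk1, the kinase that drives entry into mitosis, had log2 ratios of 3.78 in PD-L1, 3.79 in AI-Exo and 3.75 in PBS, and the microtubule regulators Stmn1 and Nusap1 and the cytokinesis factor Racgap1 were also among the 10 highest. The cyclin D gene with most UMIs was Ccnd2, at 259 CPM in PD-L1, 330.1 CPM in AI-Exo and 266 CPM in PBS in dividing cells and 391 CPM in PD-L1, 445 CPM in AI-Exo and 379.5 CPM in PBS in resting cells, log2 ratios of -0.58 in PD-L1, -0.42 in AI-Exo and -0.50 in PBS. Ccnd2 acts in G1 phase and was lower in dividing cells of each library, by less than 1.5-fold on the scale of CPM plus 10.

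The alveolar macrophage identity list had 0 of 34 measured members past 1.5-fold in all 3 libraries in either direction, and its median was -0.37 in PD-L1, -0.26 in AI-Exo and -0.43 in PBS. Ear2 and Fabp1 of the rule, given below, are not in that count and were past 1.5-fold lower in all 3 libraries. Among all genes measured in this contrast 5.04% were higher and 0.275% lower in all 3 libraries, so 0 lower is near the share of all genes. Chil3, a chitinase-like secreted protein, was at 6480.2 CPM in PD-L1, 7233 CPM in AI-Exo and 8653 CPM in PBS in dividing cells, against 8375 CPM in PD-L1, 8150.2 CPM in AI-Exo and 9034 CPM in PBS in resting cells. Pparg, the nuclear receptor, was at 362 CPM in PD-L1, 381 CPM in AI-Exo and 329 CPM in PBS in dividing cells, against 432 CPM in PD-L1, 361 CPM in AI-Exo and 504 CPM in PBS in resting cells. Mrc1, the mannose receptor, was lower in each library, with log2 ratios of -0.52 in PD-L1, -0.42 in AI-Exo and -0.52 in PBS. The ribonuclease genes of the rule were lower still: Ear2 was at 755 CPM in PD-L1, 906 CPM in AI-Exo and 875 CPM in PBS in dividing and 1745 CPM in PD-L1, 1471 CPM in AI-Exo and 2049 CPM in PBS in resting cells, and Ear1 had log2 ratios of -1.19 in PD-L1, -0.49 in AI-Exo and -1.19 in PBS. Plet1, a surface protein, was at 1287 CPM in PD-L1, 1201 CPM in AI-Exo and 986 CPM in PBS in dividing cells, against 1504 CPM in PD-L1, 1534 CPM in AI-Exo and 1248 CPM in PBS in resting cells. Fabp1, a fatty acid-binding protein, was at 353 CPM in PD-L1, 346 CPM in AI-Exo and 211 CPM in PBS in dividing cells, against 546 CPM in PD-L1, 557 CPM in AI-Exo and 617 CPM in PBS in resting cells. The 6 genes of the rule had to sum to 3 UMIs in either set.

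The lowest genes by the same rule were Lepr, the leptin receptor, with log2 ratios of -1.05 in PD-L1, -1.33 in AI-Exo and -1.24 in PBS, followed by Fam117b, the inducible chaperone genes Hspa1a and Hspa1b, Mrps6 of the mitochondrial ribosome, Ear2, Tnfsf13, Rbpms, Pilra and Mmp19. Hspa1a and Hspa1b are near-identical copies, and their separate values are uncertain. Ctsk, the protease cathepsin K, was at 556 CPM in PD-L1, 647 CPM in AI-Exo and 668 CPM in PBS in dividing cells, against 441 CPM in PD-L1, 400.1 CPM in AI-Exo and 449 CPM in PBS in resting cells. Energy and sterol lists lay near 0. Medians for nuclear-encoded respiratory chain genes (62 measured) were 0.10 in PD-L1, 0.05 in AI-Exo and 0.12 in PBS, those for glycolysis (12 measured) -0.02 in PD-L1, 0.04 in AI-Exo and -0.01 in PBS and those for cholesterol synthesis (12 measured) 0.00 in PD-L1, -0.09 in AI-Exo and -0.14 in PBS. Each of these lists had 0 genes past 1.5-fold in all 3 libraries, where 5.04% of all genes were higher and 0.275% lower.

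The core was also set against the other dividing cells of the same library, with at least 3 division UMIs and 0 of the macrophage genes. These also had 0 UMIs of Cd3e, Cd3d, Cd79a, Ms4a1 and Epcam, so dividing cells with a UMI of those T cell, B cell and epithelial genes are not among them. Against these cells the core stood apart in identity and lysosome genes, while the medians of the division lists lay nearer 0. Of 5686 genes measured in every library, 734 were higher in the core in all 3 libraries, 12.9%, and 364 lower, 6.4%, with a median of 0.05 over all of them. Of the identity list 32 of 34 were higher, with medians of 3.72 in PD-L1, 3.76 in AI-Exo and 2.78 in PBS, and 17 of 31 lysosome genes and 16 of 26 genes of lipid uptake, storage and efflux were higher as well. The macrophage genes of the rule are part of that contrast. S phase genes had medians of -0.21 in PD-L1, -0.01 in AI-Exo and 0.00 in PBS and G2 and mitosis genes of 0.37 in PD-L1, 0.08 in AI-Exo and 0.60 in PBS. Ctsk and Lpl, lipoprotein lipase, were among the highest genes outside the rule. Of 17 measured histone genes 7 were lower in the core, with medians of -1.08 in PD-L1, -1.28 in AI-Exo and -0.54 in PBS, and Ccnd1, cyclin D1, was at 6.27 CPM in PD-L1, 6.8 CPM in AI-Exo and 43.5 CPM in PBS in the core and 125 CPM in PD-L1, 66.5 CPM in AI-Exo and 128 CPM in PBS in the other dividing cells.

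The next comparison set dividing alveolar macrophages of the PD-L1 library against those of the PBS library. Over all members 6630 genes had a mean of at least 20 CPM. Of these, 436 were at least 1.5-fold higher in PD-L1, 6.58%, and 560 lower, 8.45%. The cells set aside held 37.2% of all member UMIs in PD-L1 and 53% in PBS, which is the base for the next counts. Of the 10 lowest genes (Ndrg1, Ngp, Egln3, Camp, Ifi205, Hmga2, Nedd4, Mast4, Cst3 and Il1b), 9 had most of their PBS UMIs in those cells, and of the 10 highest (Gzma, Ccl7, Hmox1, Ccl5, Tnf, Ly6a, Ifih1, Dhx40, Slc48a1 and Fabp5) 3 had most of their PD-L1 UMIs there. In the core 531 of 6308 genes were higher, 8.42%, and 475 lower, 7.53%.

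The AI-Exo library was set against the same PBS library in the same way, so that both comparisons share the PBS cells and a low or high PBS value enters both. Over all members 318 of 6625 genes were higher in AI-Exo, 4.8%, and 332 lower, 5.01%. All of the 10 lowest genes (Cst3, Ckb, Ifi205, H2-Ab1, H2-Aa, Ndrg1, Plbd1, H2-Eb1, Wdfy4 and Hspa1b) had most of their PBS UMIs in the cells set aside, and 4 of the 10 highest (Sftpc, Sema3a, Scgb1a1, C1qb, Ifih1, Tnf, Acod1, Fabp5, Marco and Lsmem1) had most of their AI-Exo UMIs there. Those cells held 38.7% of all member UMIs in AI-Exo and 53% in PBS. In the core 302 of 6215 were higher, 4.86%, and 455 lower, 7.32%. With few cells summed, 1 cell can carry a gene: Sftpc, a surfactant protein gene of alveolar epithelium, was at 396 CPM in AI-Exo core cells, and 1 cell held 99.2% of its UMIs. The neutrophil granule genes Camp and Prtn3, also among the 10 highest of AI-Exo, had 98.3% and 99.5% in 1 cell. A further setting, also chosen after the data were seen, therefore left out for each gene the core cell with most of its UMIs in each library. It gave 517 of 5649 genes higher in PD-L1, 9.15%, and 371 lower, 6.57%, and 435 of 5694 genes higher in AI-Exo, 7.64%, and 228 lower, 4%.

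Scavenger and identity genes stood as follows. Marco, the scavenger receptor for particles and bacteria, was at 505 CPM [451 to 563] in PD-L1, 613 CPM [575 to 652] in AI-Exo and 229 CPM [187 to 277] in PBS in the core. The intervals of PD-L1 and AI-Exo lay above that of PBS. Log2 ratios over PBS were 1.11 in PD-L1 and 1.38 in AI-Exo, and 1.22 in PD-L1 and 1.63 in AI-Exo without the top cell. Over all members the ratios were 1.47 in PD-L1 and 1.72 in AI-Exo. Resting cells showed the same order, at 489 CPM in PD-L1, 537 CPM in AI-Exo and 271 CPM in PBS. Of the 34 measured identity genes, Marco alone was past 1.5-fold higher in PD-L1 and Fabp4, a fatty acid-binding protein, alone lower. In AI-Exo 3 of 34 were higher, Marco, Fabp5 and Siglecf, and 0 lower. For comparison, 8.42% of all core genes were higher and 7.53% lower in PD-L1, and 4.86% higher and 7.32% lower in AI-Exo. The list medians were -0.08 in PD-L1 and 0.08 in AI-Exo. Over all members those medians were 0.30 in PD-L1 and 0.44 in AI-Exo. The cells set aside held more of the PBS member UMIs than of the other libraries, as given above, and their part in this shift was not tested. Fabp5, a fatty acid-binding protein, was at 549 CPM [493 to 609] in PD-L1, 1049.6 CPM [1000.2 to 1101] in AI-Exo and 401 CPM [345 to 463] in PBS, and 1 cell held 30.2% of the AI-Exo UMIs. Pparg, Mrc1 and Chil3 lay within 1.5-fold of PBS in both comparisons, at log2 ratios between -0.42 and 0.21.

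Inflammatory cytokine genes were higher in part. Tnf, which encodes tumour necrosis factor, was at 345 CPM [301 to 393] in PD-L1, 451 CPM [418 to 485] in AI-Exo and 107 CPM [78.9 to 141] in PBS, log2 ratios of 1.60 in PD-L1 and 1.98 in AI-Exo. Il1a, interleukin 1 alpha, was at 109.7 CPM [85.5 to 139] in PD-L1, 148 CPM [129.6 to 168] in AI-Exo and 37 CPM [21.6 to 59.3] in PBS, log2 ratios of 1.35 in PD-L1 and 1.75 in AI-Exo. Over all members the ratios were 2.02 in PD-L1 and 2.15 in AI-Exo for Tnf and 1.42 in PD-L1 and 1.86 in AI-Exo for Il1a. Neither gene's PBS interval overlapped the others in the core, and without the top cell Tnf stood at 1.62 in PD-L1 and 2.18 in AI-Exo. In resting cells Tnf was at 251 CPM in PD-L1, 466 CPM in AI-Exo and 177 CPM in PBS and Il1a at 142 CPM in PD-L1, 153 CPM in AI-Exo and 127 CPM in PBS, which for Il1a is a narrower range than in dividing cells. Of all genes measured in resting cells, 1.14% were higher and 0.704% lower in PD-L1, and 1.74% higher and 2.79% lower in AI-Exo. These shares are below those of the core, so a narrower range in resting cells is not particular to Il1a. Tnf had a UMI in 20 of 41, 70 of 93 and 14 of 28 core cells of PD-L1, AI-Exo and PBS. Of the inflammatory list 9 of 23 measured members were higher and 3 lower in PD-L1, with a median of 0.36, and 11 of 24 higher and 3 lower in AI-Exo, with a median of 0.40. Of all core genes 8.42% were higher and 7.53% lower in PD-L1, and 4.86% higher and 7.32% lower in AI-Exo. Over all members 9 of 24 were higher and 3 lower in PD-L1 and 16 of 26 higher and 3 lower in AI-Exo, with medians of 0.35 in PD-L1 and 0.81 in AI-Exo. Of all genes tested over all members, 6.58% were higher and 8.45% lower in PD-L1, and 4.8% higher and 5.01% lower in AI-Exo. Over all genes measured in the core the medians were -0.02 in PD-L1 and -0.05 in AI-Exo.

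Other cytokine genes differed between settings. Cxcl2, a neutrophil-attracting chemokine, was at 2161 CPM in PD-L1, 2231 CPM in AI-Exo and 1402 CPM in PBS, and free RNA could give at most 557 CPM of that in PD-L1, 92.6 CPM in AI-Exo and 62.7 CPM in PBS. Il1b, interleukin 1 beta, was at 94 CPM in PD-L1, 210.2 CPM in AI-Exo and 322 CPM in PBS, and without the top cell at 52.6 CPM in PD-L1, 169.6 CPM in AI-Exo and 146 CPM in PBS. Its AI-Exo ratio thereby changed sign, to 0.21. S100a8 and S100a9, neutrophil alarmin genes on the same list, were carried by single cells: 1 cell held 97.9% of the S100a9 UMIs in PD-L1 and 78.3% in AI-Exo. Neutrophil markers summed to 3042 CPM in PD-L1, 2009 CPM in AI-Exo and 859.9 CPM in PBS in the core, and their part in the inflammatory genes was not tested. Gzma, the granzyme A gene of cytotoxic lymphocytes, led PD-L1 at 298 CPM, against 0 UMIs in PBS, with 52.1% in 1 cell and NK cell markers summing to 406 CPM in PD-L1, 22.9 CPM in AI-Exo and 10.9 CPM in PBS.

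Genes of iron, heme and oxidative stress handling were higher in 6 of 17 in PD-L1 with 0 lower, and in 5 of 17 in AI-Exo with 1 lower, with medians of 0.27 in PD-L1 and 0.31 in AI-Exo. Of all core genes 8.42% were higher in PD-L1, and 4.86% higher and 7.32% lower in AI-Exo. Hmox1, heme oxygenase 1, was at 1262 CPM [1176 to 1352] in PD-L1, 533 CPM [498 to 570.2] in AI-Exo and 211 CPM [171 to 258] in PBS, log2 ratios of 2.52 in PD-L1 and 1.30 in AI-Exo. PD-L1 was the highest library, where 1 cell held 38% of the UMIs, and without the top cells the ratios were 2.27 in PD-L1 and 1.25 in AI-Exo. Over all members they were 2.72 in PD-L1 and 1.54 in AI-Exo, and the list medians were 0.36 in PD-L1 and 0.26 in AI-Exo. Resting cells had 629 CPM in PD-L1, 566 CPM in AI-Exo and 506 CPM in PBS of Hmox1, a narrower range. Fewer genes of any kind were past 1.5-fold in resting cells, with 1.14% higher in PD-L1 and 1.74% in AI-Exo. Ftl1, the ferritin light chain that stores iron, was at 8260.5 CPM [8039 to 8487] in PD-L1, 7979 CPM [7842 to 8118] in AI-Exo and 4852 CPM [4653 to 5058] in PBS, and Fth1, the heavy chain, at 15154 CPM in PD-L1, 17525 CPM in AI-Exo and 11107 CPM in PBS. Slc7a11, the cystine importer, was at 111 CPM in PD-L1, 104 CPM in AI-Exo and 28.3 CPM in PBS, where 2 PBS cells supplied the PBS value.

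**Figure D4:**
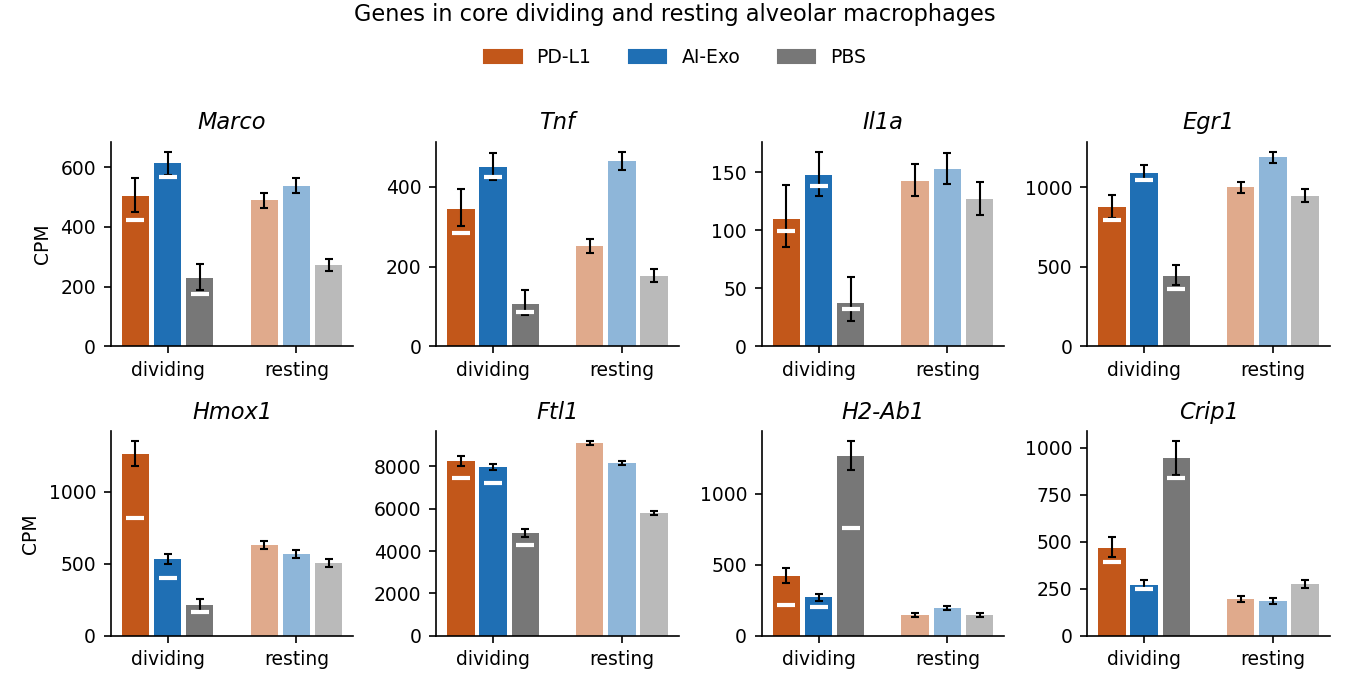
Levels (y axis, CPM) of 8 genes in core dividing cells (left, solid) and resting cells held to the same conditions (right, pale) of the PD-L1, AI-Exo and PBS libraries. Bars are CPM with exact 95% Poisson intervals, and white ticks give the dividing value without the cell that holds most UMIs of the gene. Marco, Tnf, Il1a, Egr1, Hmox1 and Ftl1 are lowest in PBS dividing cells, and H2-Ab1 and Crip1 are highest there.

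Egr1, an immediate early transcription factor, was at 876 CPM [805 to 952] in PD-L1, 1088 CPM [1038 to 1141] in AI-Exo and 444 CPM [385 to 509] in PBS in the core, log2 ratios of 0.96 in PD-L1 and 1.27 in AI-Exo, against 998 CPM in PD-L1, 1186 CPM in AI-Exo and 946 CPM in PBS in resting cells. Ifih1, a sensor of viral RNA, was at 243 CPM [206 to 284] in PD-L1, 350.5 CPM [322 to 381] in AI-Exo and 93.6 CPM [67.7 to 126] in PBS, log2 ratios of 1.29 in PD-L1 and 1.80 in AI-Exo, with 36.1% and 35.4% of the PD-L1 and AI-Exo UMIs in 1 cell. For Ifih1 the ratios in resting cells were 0.01 in PD-L1 and 0.25 in AI-Exo. Ifitm10 and Lsmem1, which encode membrane proteins, were higher in both treated libraries in dividing cells, with log2 ratios of 1.93 in PD-L1 and 1.40 in AI-Exo for Ifitm10 and 0.86 in PD-L1 and 1.30 in AI-Exo for Lsmem1. In resting cells both were higher as well, at 1.02 in PD-L1 and 0.85 in AI-Exo for Ifitm10 and 1.34 in PD-L1 and 1.38 in AI-Exo for Lsmem1. Sgms2, a sphingomyelin synthase, was at 326 CPM in PD-L1, 179 CPM in AI-Exo and 100.1 CPM in PBS in dividing cells. Pdk4 and Dhx40 complete the 10 highest genes of PD-L1 with Ccl5, and Acod1, Cxcl1, Spp1 and S100a8 those of AI-Exo. Spp1, osteopontin, was at 1006 CPM in PD-L1, 2081 CPM in AI-Exo and 525 CPM in PBS, and 1 cell held 62.4% of the AI-Exo UMIs.

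MHC class II antigen presentation genes were lower in both treated libraries, and that difference rested on a few cells. Of 9 measured members 6 were lower in PD-L1 and 5 in AI-Exo, with 0 higher in either, and the medians were -0.96 in PD-L1 and -0.83 in AI-Exo. Of all core genes 7.53% were lower in PD-L1 and 7.32% in AI-Exo. H2-Ab1, a class II beta chain, was at 423 CPM [374 to 477] in PD-L1, 271 CPM [246 to 297] in AI-Exo and 1267 CPM [1166 to 1374] in PBS, and 1 cell held 51.9%, 26% and 44.7% of its UMIs in PD-L1, AI-Exo and PBS. Conventional type 1 dendritic cell markers summed to 197 CPM in PD-L1, 173 CPM in AI-Exo and 370.1 CPM in PBS and type 2 markers to 47 CPM in PD-L1, 16.7 CPM in AI-Exo and 107 CPM in PBS in the core. When 2, 6 and 3 core cells of PD-L1, AI-Exo and PBS with dendritic cell, neutrophil or C1q UMIs past the limits named above were left out, H2-Ab1 was at 228 CPM in PD-L1, 109.7 CPM in AI-Exo and 188 CPM in PBS. The list medians then were 0.07 in PD-L1 and -0.01 in AI-Exo, and the 3 PBS cells left out had 6266 CPM of H2-Ab1. With only the top core cell of each gene left out, the medians stayed at -0.92 in PD-L1 and -0.47 in AI-Exo. In that setting 5 of 8 were lower in PD-L1 and 4 of 9 in AI-Exo, against 6.57% and 4% of all genes. Over all members 6 of 11 were lower in PD-L1, and 6 lower and 1 higher of 10 in AI-Exo, with medians of -0.62 in PD-L1 and -0.98 in AI-Exo. In resting cells the medians were 0.05 in PD-L1 and 0.21 in AI-Exo.

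In the core, Crip1, S100a4 and Ifitm3 were lower in both treated libraries with and without those cells. Crip1, a LIM domain protein, was at 469 CPM [417 to 525] in PD-L1, 270.1 CPM [245 to 297] in AI-Exo and 943 CPM [856 to 1036] in PBS, log2 ratios of -0.99 in PD-L1 and -1.77 in AI-Exo, and of -1.02 in PD-L1 and -1.82 in AI-Exo without the same cells. Over all members they were -0.52 in PD-L1 and -1.24 in AI-Exo. Members with more S phase than G2 and mitosis UMIs had Crip1 ratios of -1.66 in PD-L1 and -2.14 in AI-Exo. The other members had -0.08 in PD-L1 and -0.93 in AI-Exo, so the PD-L1 difference in Crip1 was not seen at each stage. S100a4, a calcium-binding protein, was at 36 CPM [22.8 to 54.1] in PD-L1, 58.7 CPM [47.5 to 71.8] in AI-Exo and 296 CPM [248 to 350.2] in PBS and Ifitm3, an interferon-induced membrane protein, at 47 CPM in PD-L1, 59.3 CPM in AI-Exo and 198 CPM in PBS. In PBS 7 cells supplied S100a4 and 8 cells Ifitm3. Without the top cells the log2 ratios were -2.51 in PD-L1 and -1.85 in AI-Exo for S100a4 and -1.84 in PD-L1 and -1.56 in AI-Exo for Ifitm3. Over all members both genes went the other way in PD-L1, at 1.14 for S100a4 and 0.64 for Ifitm3, where cells set aside held 99.1% and 92.6% of the PD-L1 UMIs. In AI-Exo the ratios over all members were 0.06 for S100a4 and -0.11 for Ifitm3, so neither gene was lower past 1.5-fold over all members in either library. Frmd4b was at 31.3 CPM [19.1 to 48.4] in PD-L1, 40.2 CPM [31 to 51.2] in AI-Exo and 131 CPM [99.7 to 168] in PBS, with at most 20% of a library's UMIs in 1 cell. Plac8, Plbd1, Ckb, Sdf2l1 and Malt1 were among the 10 lowest of PD-L1, and Dusp2, H2-Eb1, H2-Aa, Socs3, Plbd1 and Ckb among those of AI-Exo. Plac8 had 70.5% of its PBS UMIs in 1 cell, and Ckb, carried by 4 PBS cells, stood at 0.29 in PD-L1 once the dendritic, neutrophil and C1q cells were left out. Classical monocyte markers summed to 235 CPM in PD-L1, 354 CPM in AI-Exo and 499 CPM in PBS, and their part in these genes was not tested. Crip1 and S100a4 were highest in PBS in resting cells as well. There Crip1 was at 197 CPM in PD-L1, 185 CPM in AI-Exo and 274 CPM in PBS. S100a4 was at 67.1 CPM in PD-L1, 104 CPM in AI-Exo and 190 CPM in PBS.

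**Figure D5:**
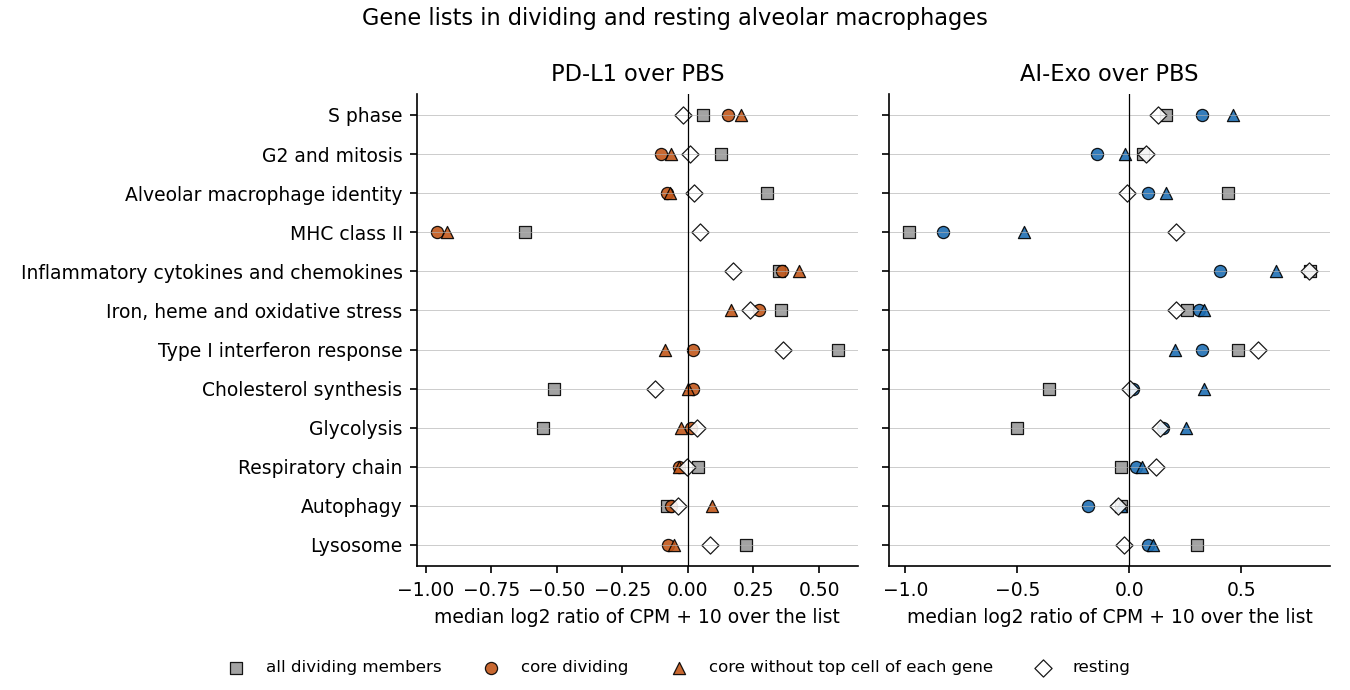
Median log2 ratio of CPM plus 10 over PBS (x axis) for 12 gene lists, for PD-L1 (left) and AI-Exo (right), 1 library each. Squares are all dividing members, circles the core, triangles the core without the top cell of each gene and diamonds resting cells. MHC class II genes lie lowest in dividing cells, at -0.96 in PD-L1 and -0.83 in AI-Exo in the core, and near 0 in resting cells.

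In the core, S phase genes were higher in 3 of 40 and lower in 1 in PD-L1, with a median of 0.15, and higher in 6 of 42 and lower in 1 in AI-Exo, with a median of 0.33. Of all core genes 8.42% were higher in PD-L1 and 4.86% in AI-Exo. Without the top cells 11 of 39 were higher in AI-Exo and 0 lower, with a median of 0.46, against 7.64% of all genes higher in that setting. Ccne1, the cyclin E that starts S phase, was at 37.6 CPM [24.1 to 56] in PD-L1, 56.9 CPM [45.8 to 69.7] in AI-Exo and 8.71 CPM [2.37 to 22.3] in PBS, from 24, 92 and 4 UMIs. G2 and mitosis genes had medians of -0.10 in PD-L1 and -0.14 in AI-Exo, with 2 of 50 higher in PD-L1, 1 of 51 higher in AI-Exo and 0 lower in both.

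Autophagy genes, the process that the study's title names, had medians near 0. In the core 0 of 26 were past 1.5-fold in PD-L1, with a median of -0.06, and 1 was higher and 2 lower of 26 in AI-Exo, with a median of -0.18. Among all core genes measured, 8.42% were higher and 7.53% lower in PD-L1, and 4.86% higher and 7.32% lower in AI-Exo. The AI-Exo autophagy counts lie near those shares. Sqstm1, the autophagy receptor p62, was at 784 CPM [716 to 855] in PD-L1, 852 CPM [807 to 898] in AI-Exo and 657 CPM [585 to 736] in PBS and Map1lc3b, the LC3 protein of autophagosomes, at 291 CPM [251 to 337] in PD-L1, 292 CPM [266 to 319] in AI-Exo and 296 CPM [248 to 350.2] in PBS. The Map1lc3b intervals overlapped among all 3 libraries. Over all members the autophagy medians were -0.08 in PD-L1 and -0.04 in AI-Exo. Lysosome genes had medians of -0.08 in PD-L1 and 0.08 in AI-Exo, with 1 higher and 2 lower of 32 in PD-L1 and 1 higher and 0 lower of 32 in AI-Exo. Cd274, the gene of the checkpoint ligand also called PD-L1, stood at 188 CPM [156 to 225] in PD-L1, 219 CPM [197 to 243] in AI-Exo and 194 CPM [156 to 238] in PBS in core dividing cells, with overlapping intervals, and at 289 CPM in PD-L1, 289 CPM in AI-Exo and 320.5 CPM in PBS in resting cells. Over all members Cd274 was past 1.5-fold higher in PD-L1, whereas the core log2 ratio of PD-L1 over PBS was -0.041.

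Some lists stood apart over all members and not in the same way in the core. Over all members 8.45% of all genes were lower in PD-L1 and 5.01% in AI-Exo. Glycolysis genes had 8 of 17 lower in PD-L1 and 6 of 17 in AI-Exo over all members, with medians of -0.55 in PD-L1 and -0.50 in AI-Exo, against 0.01 in PD-L1 and 0.15 in AI-Exo in the core. Cholesterol synthesis genes had 8 of 19 and 7 of 18 lower over all members, with medians of -0.51 in PD-L1 and -0.36 in AI-Exo, against 0.02 in PD-L1 and 0.02 in AI-Exo core cells. Without the top cells the core medians were -0.03 in PD-L1 and 0.25 in AI-Exo for glycolysis and -0.00 in PD-L1 and 0.33 in AI-Exo for cholesterol synthesis. Type I interferon response genes stood at 0.57 in PD-L1 and 0.49 in AI-Exo over all members, at 0.02 in PD-L1 and 0.33 in AI-Exo in the core, and at 0.36 in PD-L1 and 0.57 in AI-Exo in resting cells. Free RNA could make up at most 10.4%, 1.73% and 1.09% of the core UMIs in PD-L1, AI-Exo and PBS, by genes that macrophages lack. Gzma is one of those genes, so the PD-L1 bound includes the cell that holds most of its UMIs.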

How the data were processed

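The files hold raw UMI counts per gene and barcode, 1 matrix per library, deposited by the authors. Cell Ranger made them, version 7.1.0 per the file headers and 3.0.2 per the submitters' processing notes. The genome build was not stated in the sources used here.

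Counts of the chosen cells were summed per library and given as CPM with exact Poisson intervals, shares with exact Clopper-Pearson intervals and ratios of shares with log intervals. Log2 ratios use CPM plus 10, for genes with a mean of at least 20 CPM over the pair compared, and 1.5-fold sets a call by size. Named genes were the 10 highest and 10 lowest ratios at 100 CPM and 50 UMIs or more in the higher library, list members at the ends or with most UMIs, and single genes such as Marco and Cd274. Members and lists were chosen with earlier results of these data known, and the core, its version without top cells and its version without other myeloid cells were set after the data were seen. Free RNA was bounded from barcodes with at most 100 UMIs. Scrublet in scanpy 1.11.5 marked 0, 0 and 1 cells of PD-L1, AI-Exo and PBS at its automatic threshold, so no doublets were removed, and a score of 0.15 was an alternative. Python 3.11.15, numpy 2.4.6, scipy 1.17.1 and pandas 2.3.3 were used, and the comparison was tested on simulated data. Promoters are from RefSeq GRCm38.p6, matched by symbol.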

Additional observations from a re-analysis of the deposited data

Results flagged for a closer look

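Cd74, the invariant chain of MHC class II, had a log2 ratio of AI-Exo over PBS of -1.165 in core dividing cells and 0.623 in resting cells, opposite directions in the 2 cell sets. Il1b had -0.5935 in core dividing cells and 0.70 in resting cells. Neither difference between the cell sets was tested. Without the cells of other myeloid markers, Cd74 was at 387 CPM in AI-Exo and 389 CPM in PBS core cells. Without the top cells the Il1b ratio in dividing cells was 0.21.

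Cells outside the comparisons also carried the signal of dividing alveolar macrophages. Of the cells that met both sums and were removed for a T cell, B cell or epithelial UMI, 23 in PD-L1, 81 in AI-Exo and 27 in PBS had at least 5 of the 6 macrophage genes and fewer than 3 tumour-like UMIs. There is no control sample in which such cells should be absent.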

How the results depend on the processing

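Of 136 recomputed shares and gene counts 102 stayed within counting error or within 1.5 times of the value over all members, as did 289 of 300 list medians and 854 of 1230 gene ratios (within the counting spread). As shares of all cells, dividing cells were 1.03% in PD-L1, 2.12% in AI-Exo and 0.623% in PBS after thinning, 0.943% in PD-L1 and 1.92% in AI-Exo in the thinned core, and 0.742%, 1.64% and 0.662% in PD-L1, AI-Exo and PBS with exclusions at 3 UMIs. AI-Exo stood at 0.889% in the core and at 0.885% with cells of other types left out. Without Ear2 and Car4 the share past the gate was 11.2% in PBS and the AI-Exo ratio 1.85, and at a division sum of 5 the AI-Exo share was 15.8%. Gene counts moved most, but the number of genes tested, 6630 in PD-L1 and 6625 in AI-Exo over all members, also changed with the filter. With cells of other types left out, 758 of 6351 were higher in PD-L1, and 486 higher and 603 lower of 6283 in AI-Exo. With CPM plus 1, 534 of 6625 were lower in AI-Exo. Without a filter, 812 were higher and 1034 lower of 15452 in PD-L1, and 600 and 567 of 16720 in AI-Exo. At 100 CPM or more, the counts were 134 and 76 of 1719 in PD-L1, and 116 and 54 of 1733 in AI-Exo. Among S phase members, they were 1129 and 1333 of 6570 in PD-L1, and 973 and 1287 of 6494 in AI-Exo. Without top cells, 371 of 5649 were lower in PD-L1. Dividing against resting cells, 588 genes were higher and 237 lower over all members, against 275 and 15 in the core, and against other dividing cells 409 and 169 over all members, against 734 and 364 in the core. Reversed signs in PD-L1 were Spp1 -0.094 and Ifitm3 -1.11 with other cell types left out, Ifitm3 -0.56 among S phase members, Ccne1 -0.41 and Plac8 0.25 among the rest, S100a4 -2.73, Ifitm3 -1.87 and Cd274 -0.041 in the core, S100a4 -2.51 and Ifitm3 -1.84 without top cells, and, without other myeloid cells, S100a4 -2.50, Ifitm3 -1.78, H2-Ab1 0.26, H2-Aa 0.64, Cd74 0.30, Ckb 0.29 and the MHC class II median 0.073. In AI-Exo, S phase members gave Hmox1 -0.17 and Cxcl1 -1.86. The cause was not tested where cells were not the change. With 28 to 93 core cells and 1 library per group, depth and cell number limit every ratio, and PBS has the fewest. No paired analysis was possible because each group has 1 library.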

Other observations

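Other gene groups were read against the shares of all core genes called, 8.42% higher and 7.53% lower in PD-L1, and 4.86% higher and 7.32% lower in AI-Exo. In the core, 0 of 18 MHC class I genes were past 1.5-fold in either library, with medians of -0.14 in PD-L1 and -0.08 in AI-Exo. Checkpoint and costimulatory ligand genes had 0 of 12 higher and 2 lower in PD-L1, and 0 higher and 4 lower of 12 in AI-Exo, with medians of -0.14 in PD-L1 and -0.18 in AI-Exo. Without the top cells 1 of 12 was lower in PD-L1 and 2 of 11 in AI-Exo. Genes of lipid uptake, storage and efflux had medians of 0.14 in PD-L1 and 0.12 in AI-Exo, and alternative activation genes of 0.05 in PD-L1 and 0.16 in AI-Exo. Receptors and regulators that alveolar macrophages depend on had 3 higher and 3 lower of 23 in PD-L1 and 3 higher and 4 lower of 24 in AI-Exo, with medians of -0.04 in PD-L1 and 0.04 in AI-Exo. Heat shock and immediate early genes had 4 of 21 higher in PD-L1 and 2 of 21 in AI-Exo, with medians of 0.07 in PD-L1 and 0.05 in AI-Exo.

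Interferon gamma response genes had a median of -0.13 in PD-L1 and 0.17 in AI-Exo core cells, and of 0.09 and 0.43 in resting cells of PD-L1 and AI-Exo. Myc, a driver of growth and division, was at 70.5 CPM in PD-L1, 87.8 CPM in AI-Exo and 47.9 CPM in PBS in core dividing cells, against 53.4 CPM in PD-L1, 246 CPM in AI-Exo and 513 CPM in PBS in the other dividing cells.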
